A study of Mus musculus with 30 samples.

Results

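Microglia and perivascular macrophages, the resident myeloid cells of the brain, were followed through 10 listed marker genes: Csf1r, Cx3cr1, P2ry12, Tmem119, Aif1, Mrc1, Cd163, Ptprc, C1qa and Lyz2. These genes were chosen by name from 21820 protein-coding symbols, and their estimated counts and TPM (the share of a transcript among all transcripts, corrected for length) were summed per symbol in all 14 RNA-seq libraries. The libraries fell into 4 groups. GFP-positive cells (n = 2) and GFP-negative cells (n = 2) were sorted by FACS from brains of adult male Tie2-GFP mice, in which the Tie2 (Tek) promoter drives GFP. That promoter is active in endothelial cells (ECs) and is also known from some blood-lineage cells, and the GFP-negative gate holds every other viable cell type of the brain. The 2 remaining groups were primary brain EC cultures of 8 days purified with puromycin, a drug that ECs survive through their efflux pumps. WT cultures (n = 6) came from C57BL/6J mice (replicates 1 and 2, isolation method A) or from Ctnnb1flex3/+;Tie2-GFP mice without Cre (replicates 3 to 6, method B). Stabilized cultures (n = 4) came from Ctnnb1flex3/+;Pdgfb-CreER;Tie2-GFP mice, in which the endothelial Pdgfb-CreER allele makes β-catenin resistant to degradation after 4-hydroxytamoxifen (replicates 1 and 2, method A; replicates 3 and 4, method B). Methods are assigned here as the study's methods text states them, whereas a figure legend of the study places WT replicates 5 and 6 in method A, which bears on each comparison of methods below. In the flex3 experiments 4-hydroxytamoxifen was given to controls and Cre carriers alike. Brains of several mice were pooled for each culture and wells of a culture count as replicates, so p-values measure the spread between these libraries, part of which is technical.

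Microglia enter the brain in early development and maintain themselves there, and perivascular macrophages sit between the vessel wall and the glial limit. Both depend on CSF1R, the receptor tyrosine kinase for the ligands CSF1 and IL-34. CX3CR1 binds fractalkine (Cx3cl1), which neurons and activated endothelium carry, and P2RY12 senses ADP and directs microglial processes towards vessels and injury. Both cell types lie against brain vessels, so their RNA gauges how clean an EC preparation is.

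Total estimated counts ran from 24284843 to 94686456 per library. The 6 endothelial markers checked (Pecam1, Cdh5, Kdr, Tek, Cldn5, Erg) were all called higher in GFP-positive than in GFP-negative cells, and their summed level was 1662 and 1748 TPM in GFP-positive against 4.44 and 17.0 TPM in GFP-negative cells. Markers of pericytes, the mural cells of capillaries, summed to 535 and 547 TPM in GFP-positive and to 357 and 707 TPM in GFP-negative cells, and 0 of 6 differed by the test (edgeR, none at an unadjusted p under 0.05 either). GFP-positive replicate 2 stood apart from replicate 1. It held 31516 against 4756 TPM of 4 erythrocyte genes, 15.5 against 3.94 TPM of 8 monocyte and neutrophil genes (all 8 higher), and 23.2 against 4.51 TPM of 10 platelet genes (9 of 10 higher; this list was chosen after values were seen). The RNA-seq libraries of WT culture replicates 3 and 4 were prepared at another facility and read for 150 cycles, against 36 for the other cultures.

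The sequences printed here are the promoters whose chromatin and letters bear on the results below, and an intronic element of Mrc1 that was accessible in each of the 10 ATAC-seq libraries. Promoters run from 250 bases before to 50 bases after a RefSeq start (build GRCm38.p6). The P2ry12 window is chr3:59262936-59263235 on the minus strand and the Mrc1 window chr2:14229164-14229463 on the plus strand. Capitals in them mark GAGGAA or its reverse complement TTCCTC, the core of the motif of PU.1, the master transcription factor of the myeloid lineage. In the Mrc1 intronic peak (chr2:14295443-14295683, plus strand) capitals mark the 85 bases between the lowest and the highest summit of the 10 libraries.
P2ry12 promoter: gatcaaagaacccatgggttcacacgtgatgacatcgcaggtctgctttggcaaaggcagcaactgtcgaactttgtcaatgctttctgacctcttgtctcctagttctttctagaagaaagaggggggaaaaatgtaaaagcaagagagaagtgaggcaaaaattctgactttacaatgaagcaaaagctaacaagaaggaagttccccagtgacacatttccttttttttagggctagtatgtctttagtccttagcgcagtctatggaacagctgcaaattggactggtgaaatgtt
Mrc1 promoter: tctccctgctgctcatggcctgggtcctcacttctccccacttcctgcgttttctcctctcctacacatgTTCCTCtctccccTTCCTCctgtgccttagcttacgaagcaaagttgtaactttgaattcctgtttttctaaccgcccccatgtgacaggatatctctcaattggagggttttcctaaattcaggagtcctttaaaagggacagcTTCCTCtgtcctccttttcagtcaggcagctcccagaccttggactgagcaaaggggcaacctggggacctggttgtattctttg
Mrc1 intronic peak: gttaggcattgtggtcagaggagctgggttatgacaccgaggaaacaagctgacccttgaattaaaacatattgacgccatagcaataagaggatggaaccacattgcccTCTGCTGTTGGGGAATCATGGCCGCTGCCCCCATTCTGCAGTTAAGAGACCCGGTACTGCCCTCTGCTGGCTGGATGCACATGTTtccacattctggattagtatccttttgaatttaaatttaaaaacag

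The Mrc1 window held 3 copies of the letters searched, first bases at -180, -167 and -35 from the start. Ptprc held 1 (at -158), Aif1 held 1 (at -7), and P2ry12, Cx3cr1, Cd163 and Lyz2 held none. At least 1 copy is present for 31.2% of all symbols with a RefSeq promoter, so 3 of 7 members matched is a description of letters in short windows and not of binding. The longer GAGGAAGT (reverse complement ACTTCCTC) was in 0 of 7 and in 3.69% of all symbols. Csf1r, Tmem119 and C1qa were not matched to the table.

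Every member had reads in both GFP-negative libraries, and each of the 10 was higher in both of these than in either GFP-positive library. This separation was seen for 37.1% of the 15101 genes tested. Summed over the members, GFP-negative cells held 170.5 and 233.0 TPM and GFP-positive cells 2.06 and 8.72 TPM, so that the GFP-positive level was 2.67% ± 2.33 (SD over the 2 GFP-positive libraries) of the GFP-negative mean. In bulk RNA, fewer cells of a type and less RNA per cell cannot be told apart. By edgeR, 7 of 10 members were called lower in GFP-positive cells (adjusted p under 0.05, over 2-fold, and at least 5 TPM in both GFP-negative libraries), against 7.56% of all genes tested. None of the 10 was called higher, where 8.3% of all genes were. The other 3, Tmem119, Aif1 and Cd163, passed the adjusted p but not the TPM minimum, so all 10 of 10 were lower by adjusted p against 19.7% of all genes. The median log2 fold change was -7.08 over the members and -0.06 over all genes.

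**Figure D1:**
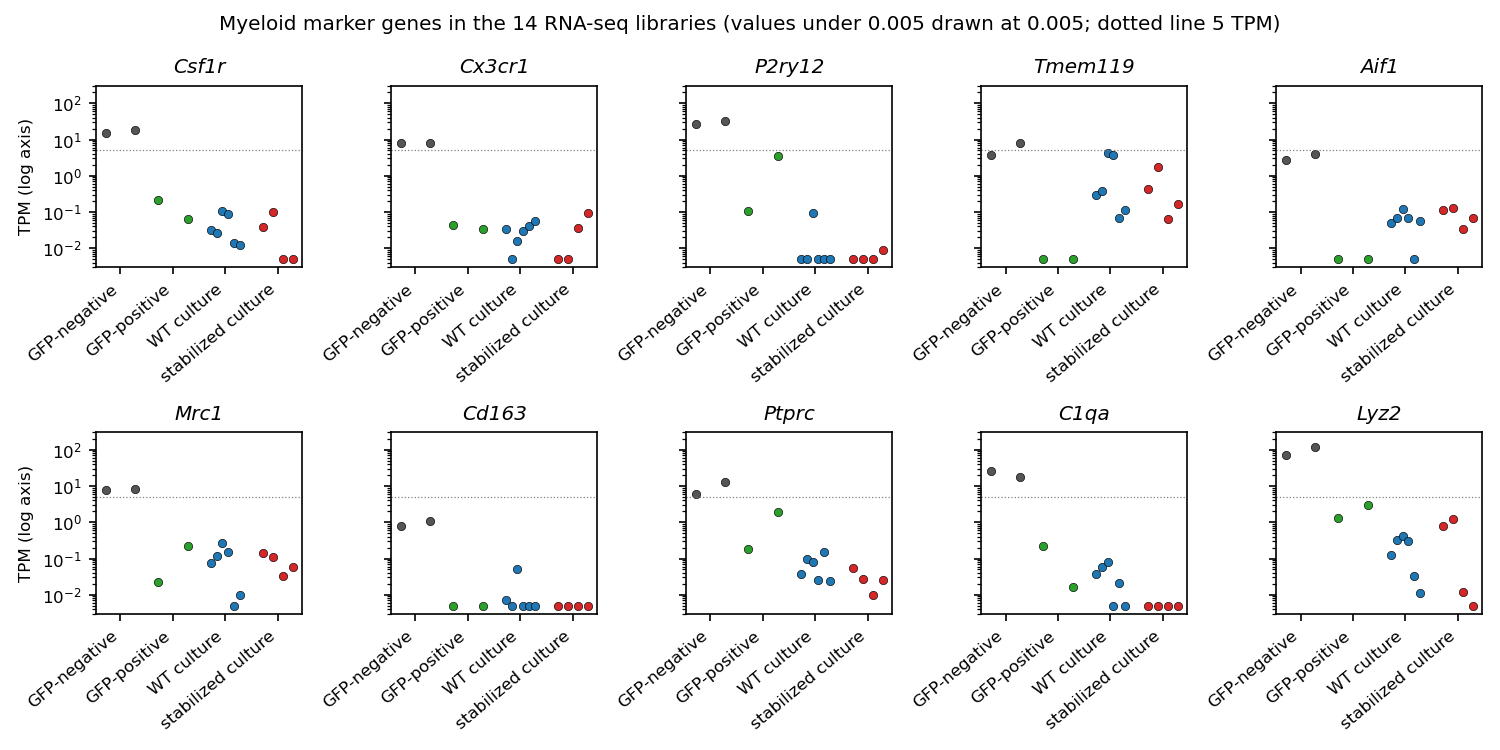
TPM on a log axis of each of the 10 members in each of the 14 RNA-seq libraries, grouped along the x axis and coloured by group, with values under 0.005 TPM drawn at 0.005 and a dotted line at 5 TPM. The 2 GFP-negative points lie above both GFP-positive points in each panel, and in the cultures Tmem119 is the gene with 3 libraries above 1 TPM.

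The receptors for growth and chemokine signals were low in GFP-positive cells. Csf1r (ENSMUSG00000024621.16) stood at 15.5 and 17.99 TPM in GFP-negative and at 0.212 and 0.0634 TPM in GFP-positive cells. The groups did not overlap and the log2 fold change was -7.18 (SE 0.73, adjusted p = 0.00227, edgeR). Cx3cr1 (ENSMUSG00000052336.7, chr9:119901616-120069879, minus strand) was the most even member, with 8.15 and 8.16 TPM in GFP-negative and 0.0445 and 0.0339 TPM in GFP-positive cells. Its log2 fold change was -7.28 (SE 0.73, adjusted p = 0.00226, edgeR). Both receptors were low in both GFP-positive libraries, with means at 0.82% and 0.48% of the GFP-negative means.

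P2ry12 (ENSMUSG00000036353.13, chr3:59216272-59262871, minus strand) differed between the GFP-positive libraries. It stood at 27.2 and 33.4 TPM in GFP-negative cells, at 0.109 TPM in GFP-positive replicate 1 and at 3.56 TPM in replicate 2. In TPM, replicate 2 thus held 11.7% of the GFP-negative mean and replicate 1 held 0.36%. The gap was smaller in CPM (counts scaled to library size), at 0.257 in replicate 1 and 2.97 in replicate 2. GFP-negative cells held 77.6 and 63.2 CPM. The log2 fold change was -5.19 (SE 1.11, adjusted p = 0.0187, edgeR), and an offset for transcript length ended the call (adjusted p = 0.0808). P2ry12-202, of 2101 bases, was the leading transcript in both GFP-negative libraries and held all of the gene's TPM in GFP-positive replicate 1. In replicate 2 the shorter P2ry12-205, of 619 bases, led with 2.86 TPM, against 0.70 TPM of P2ry12-202. P2RY12 is also the ADP receptor of platelets, and the platelet gene values of replicate 2 are given above. Their part in the result was not tested. Of the 10 members 4 were higher in replicate 2, 4 in replicate 1 and 2 were at 0 in both. Of 12 further microglial genes 3 were higher in replicate 2, 8 in replicate 1 and 1 was at 0 in both. Those 12 genes summed to 19.9 TPM in replicate 2 and 9.42 TPM in replicate 1.

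Tmem119 and Aif1 mark microglia by a membrane protein of unknown function and by the calcium-binding protein IBA1. Tmem119 (ENSMUSG00000054675.5, chr5:113793729-113800516, minus strand) stood at 3.81 and 8.26 TPM in GFP-negative cells and at 1 read in all of the GFP-positive reads, against 2144 in GFP-negative cells. The ratio of library-size-scaled counts was 2680 (95% interval 481 to 105840, counting error only). Aif1 (ENSMUSG00000024397.14, chr17:35170991-35176068, minus strand) stood at 2.72 and 3.92 TPM in GFP-negative cells and had no read in GFP-positive cells. It was at least 122-fold higher in GFP-negative cells, taking 3 counts over the GFP-positive group as the floor. Its adjusted p of 0.0126 (edgeR) rose to 0.0679 and 0.0819 without GFP-negative replicate 1 or 2.

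The perivascular macrophage genes showed the same order. Mrc1 (ENSMUSG00000026712.3, chr2:14229392-14332057, plus strand), the mannose receptor CD206, stood at 7.56 and 8.51 TPM in GFP-negative and at 0.023 and 0.222 TPM in GFP-positive cells. The log2 fold change was -6.02 (SE 0.95, adjusted p = 0.00755, edgeR). Cd163 (ENSMUSG00000008845.9, chr6:124304656-124330527, plus strand), the scavenger receptor for haemoglobin and haptoglobin complexes, was the lowest member, at 0.809 and 1.06 TPM in GFP-negative cells. It had 739 reads there and none in GFP-positive cells, which puts it at least 308-fold higher in GFP-negative cells.

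Ptprc, C1qa and Lyz2 reach beyond microglia. Ptprc (ENSMUSG00000026395.16, chr1:138062861-138175708, minus strand) encodes CD45, the phosphatase on all nucleated blood cells, and had the smallest difference of the 10. It stood at 6.05 and 12.99 TPM in GFP-negative cells and at 0.181 and 1.89 TPM in GFP-positive replicates 1 and 2. In CPM these values were 51.0 and 91.1 against 2.03 and 4.99. The log2 fold change was -3.99 (SE 0.62, adjusted p = 0.00692, edgeR), and the offset for transcript length ended this call as well (adjusted p = 0.0746). The leading transcript differed between libraries: in GFP-positive cells it was the protein-coding Ptprc-207 in replicate 1 (0.179 TPM) and the retained-intron Ptprc-206 in replicate 2 (1.48 TPM), which had no read in replicate 1. Lyz2 (ENSMUSG00000069516.8, chr10:117277331-117282321, minus strand), lysozyme M of granulocytes and macrophages, was the highest member, at 72.3 and 121 TPM in GFP-negative and at 1.27 and 2.93 TPM in GFP-positive cells. It fell by 5.23 (log2) in GFP-positive cells (SE 0.46, adjusted p = 0.0018, edgeR). Of its 36-base words 27.3% are shared with Lyz1, a near copy at 0.794 and 1.16 TPM in GFP-negative cells, so reads could be split between them. P2ry12, Ptprc and Lyz2 together made up 96.1% of the members' summed TPM in GFP-positive replicate 2 and 75.7% in replicate 1. Their share was smaller in CPM. Replicate 2 held 2.97, 4.99 and 4.39 CPM of these genes, of 15.3 CPM for all members. Replicate 1 held 0.257, 2.03 and 2.37 CPM, of 6.82 CPM.

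C1qa (ENSMUSG00000036887.5, chr4:136895917-136898803, minus strand) encodes the A chain of C1q, the first component of the classical complement pathway, which needs the B and C chains as well. It stood at 26.3 and 18.1 TPM in GFP-negative and at 0.217 and 0.0165 TPM in GFP-positive cells, or -6.99 on the log2 scale (SE 1.31, edgeR adjusted p = 0.0123). Its partners were called lower with it, C1qb at -10.11 (log2, SE 1.13, adjusted p = 0.00281) and C1qc at -10.52 (SE 1.41, adjusted p = 0.00471). In GFP-positive replicate 2 both partner chains were at 0 TPM.

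**Figure D2:**
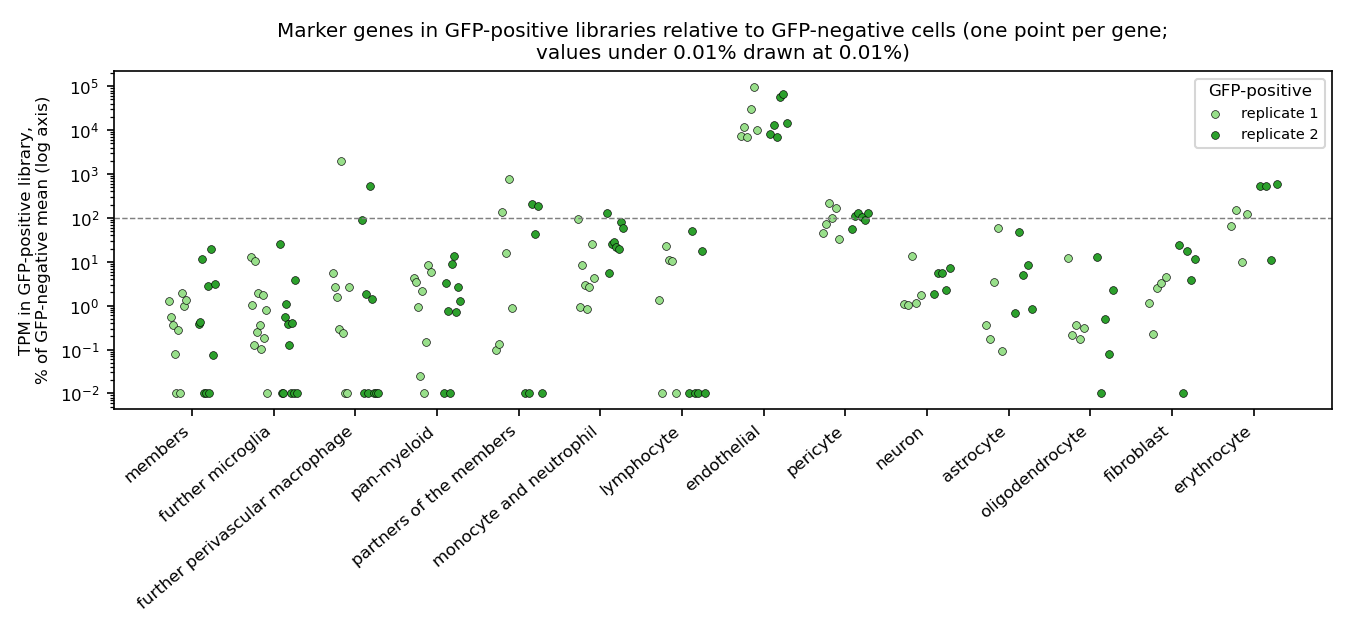
Level of each gene in the 2 GFP-positive libraries as a percent of its GFP-negative mean TPM (log axis), with 1 point per gene, for the members and the other marker lists, values under 0.01% drawn at 0.01% and a dashed line at 100%. The members lie at 19.9% (Ptprc, replicate 2) or below, with medians of 0.453% in replicate 1 and 0.397% in replicate 2, where endothelial genes lie above the line.

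Within GFP-negative cells the order of mean TPM was Lyz2, P2ry12, C1qa, Csf1r, Ptprc, Cx3cr1, Mrc1, Tmem119, Aif1 and Cd163. Lyz2, P2ry12, C1qa and Csf1r each lay above the next gene in both libraries, though C1qa (lowest 18.07 TPM) and Csf1r (highest 17.99 TPM) nearly met. The values of Ptprc, Cx3cr1, Mrc1 and Tmem119 overlapped, as did those of Tmem119 and Aif1, and with n = 2 their order is not resolved. Cd163 lay below the other 9 in both libraries.

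Other genes of these cells, listed beside the members, moved in the same direction. Of 12 further microglial genes 7 were called lower in GFP-positive cells and none higher, and all 12 passed the adjusted p, with a median log2 fold change of -6.90. Ctss, the lysosomal protease cathepsin S, was at 124 and 109 TPM in GFP-negative and 0.941 and 4.60 TPM in GFP-positive cells. Selplg and Tyrobp fell by 10.04 (SE 1.21, adjusted p = 0.00354, edgeR) and by 5.8 (SE 1.14, adjusted p = 0.0143). Of 9 pan-myeloid genes 3 were called lower and none higher (median -5.42), among them Laptm5 and Cd68.

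The 9 further perivascular macrophage genes were split. By adjusted p 7 were lower and 1 was higher, and by the full criteria 0 were called lower and 1 higher. The gene called higher was Stab1, a scavenger receptor that sinusoidal endothelium also makes, at 84.6 and 23.4 TPM in GFP-positive against 4.21 and 4.37 TPM in GFP-negative cells (log2 fold change 2.92, SE 0.50, adjusted p = 0.00975, edgeR). Pf4, platelet factor 4, did not pass, at 0.452 and 7.37 TPM in GFP-positive against 4.06 and 12.5 TPM in GFP-negative cells (-1.70, SE 1.05, adjusted p = 0.281, edgeR). Pf4 was higher in GFP-positive replicate 2 and Stab1 in replicate 1. Of the 9 genes 3 were higher in replicate 2, 4 in replicate 1 and 2 were at 0 in both.

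In the 10 culture libraries 8 of the 10 members stood below 1 TPM throughout, and Tmem119 and Lyz2 reached 1 TPM in at least 1 library. Of 100 pairs of a member and a library, 28 held no read and 4 reached 1 TPM. Summed over the members, WT cultures held from 0.283 to 5.53 TPM (median 0.888) and stabilized cultures from 0.191 to 3.36 TPM. Without Tmem119 the sums ran from 0.129 to 1.61 TPM.

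For Csf1r the 6 WT cultures ran from 0.0121 to 0.107 TPM and the 4 stabilized cultures from 0.00285 to 0.102 TPM. C1qa had 5 reads in all 6 WT cultures and 0 in the 4 stabilized cultures. Cd163 had 4 and 0 reads, and P2ry12 had 4 reads in WT replicate 3 and 1 read in stabilized replicate 4. A count of 0 in the 4 stabilized libraries allows a level of up to 0.0146 CPM (counts scaled to library size) over the group. Lyz2 reached 0.797 and 1.23 TPM in stabilized replicates 1 and 2 (method A), against 0.0118 and 0 TPM in replicates 3 and 4 (method B).

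Between WT cultures and GFP-positive cells 5 of 10 members had enough reads to test and 0 were called, against 13.5% of all genes called higher and 10.2% called lower. Cx3cr1, P2ry12, Aif1, Cd163 and C1qa had too few reads. Without the TPM minimum 4 passed by edgeR, against 22.9% of all genes higher and 20.5% lower. Lyz2 was -4.01 (SE 0.84, adjusted p = 0.00513), Ptprc -3.30 (SE 0.78, adjusted p = 0.0085) and Csf1r -2.21 (SE 0.72, adjusted p = 0.033) on the log2 scale, whereas Tmem119 was 7.04 (SE 1.78, adjusted p = 0.0116). Mrc1 did not pass (-1.49, SE 1.20, adjusted p = 0.336), and the same 4 were those with an unadjusted p under 0.05. For Csf1r the adjusted p was under 0.05 in 9 of 19 settings. Ptprc did not pass without GFP-positive replicate 2 (adjusted p = 0.0604) or with method B cultures of 36 cycles alone (adjusted p = 0.0943).

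Between stabilized cultures and the same GFP-positive libraries 7 members were tested and 0 were called, against 15.1% of all genes called higher and 11% called lower, with Aif1, Cd163 and C1qa untested. At an unadjusted p under 0.05 there were 4. Without the TPM minimum 3 passed, against 24.5% higher and 23.1% lower. These were Ptprc (-5.23, SE 0.67, adjusted p = 0.00109, edgeR), P2ry12 (-7.81, SE 1.31, adjusted p = 0.00291) and Tmem119 (6.69, SE 1.68, adjusted p = 0.014). Stabilized and WT cultures did not differ by the test for any of the 5 members tested, nor for any of 12959 genes (0% called in either direction by edgeR), although 1344 genes and, of the members, Ptprc had an unadjusted p under 0.05. DESeq2 called 0 members here, and 0 in each of the other comparisons that include cultures. The test of stabilized against WT cultures had no term for isolation method or facility, so their spread within groups enters the error. By adjusted p under 0.05 (edgeR) 7186 of 12922 genes differed between methods. The stabilization effect differed between methods for 6620 of 13357 genes. The 0% of 12959 genes holds for this model and does not show an absence of effect. No all-gene count with method or replicate number as a term is given here.

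Tmem119 had reads in each of the 10 culture libraries. WT cultures held a lowest level of 0.0677 TPM, a median of 0.344 TPM and a highest of 4.28 TPM. Replicates 3 and 4 stood at 4.28 and 3.69 TPM and the others at no more than 0.388 TPM. The gap was smaller in CPM, at 3.98 and 3.91 in replicates 3 and 4 against 1.10 or less in the other WT cultures. Stabilized cultures held 0.443, 1.75, 0.0623 and 0.166 TPM. The 2 WT libraries of 150 cycles and stabilized replicate 2 were therefore high, and the WT and stabilized ranges overlapped. The rise over GFP-positive cells rests on 1 read in that group, and without GFP-positive replicate 1 or 2 the adjusted p was 0.0585 or 0.0766 for WT and 0.0595 or 0.0718 for stabilized cultures. Tmem119 is also known from bone-forming and other mesenchymal cells. Among fibroblast and mural genes, chosen after values were seen, Col1a1 stood at 20.8 and 17.5 TPM in WT replicates 3 and 4 and at 24.6 TPM in stabilized replicate 2, against 2.09 to 9.74 TPM in the other 7 cultures. Over the 10 culture libraries, which share experiments and wells, Pearson's r between log2(TPM + 1) of Tmem119 and of Col1a1 was 0.881, of Lum (at most 0.119 TPM there) 0.807, of Col3a1 0.586, of Dcn 0.533, of Pdgfrb 0.206 and of Pdgfra 0.114. The 5 fibroblast genes summed to 5.07 to 29.2 TPM in WT and to 4.86 to 48.3 TPM in stabilized cultures. In CPM they summed to 76.6 and 75.2 in WT replicates 3 and 4, against 74.0 and 92.1 in replicates 1 and 2. WT replicates 5 and 6 held 51.0 and 41.7 CPM, and stabilized replicates 1 to 4 held 94.6, 216, 44.9 and 45.7 CPM. The r values are of TPM only, and the part of the fibroblast genes in the result was not tested.

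**Figure D3:**
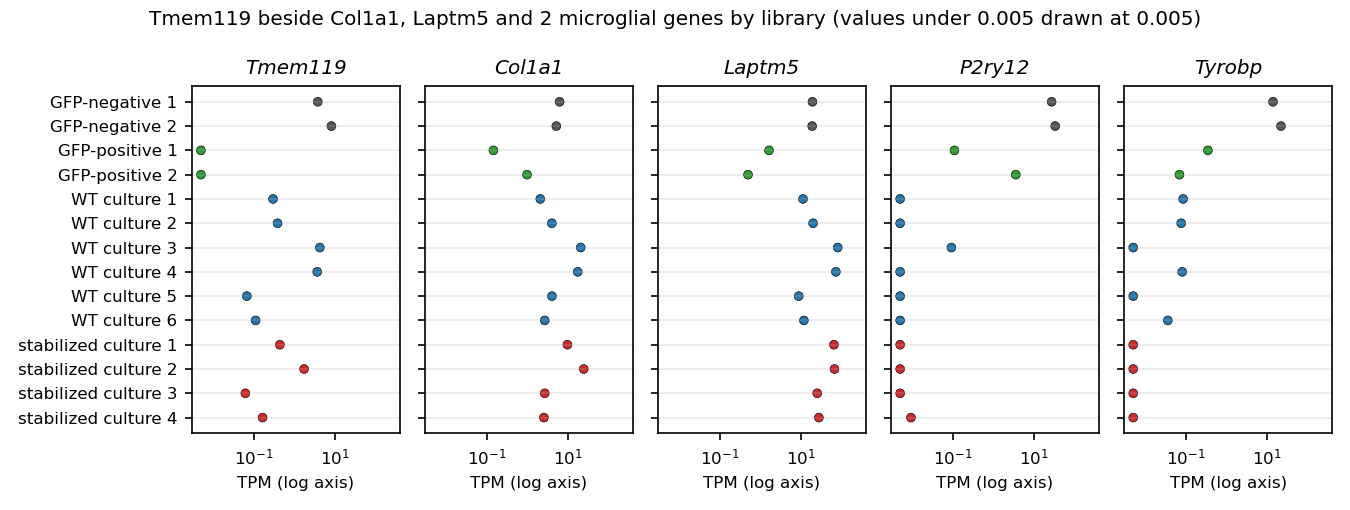
TPM on a log axis of Tmem119 beside Col1a1, Laptm5, P2ry12 and Tyrobp in the 14 RNA-seq libraries, with values under 0.005 TPM drawn at 0.005. The cultures with the most Tmem119, WT replicates 3 and 4 and stabilized replicate 2, also held the most Col1a1, at 17.5 to 24.6 TPM.

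Ligands of the members' receptors were measured in all 4 groups. Csf1, a ligand of CSF1R, stood at 4.84 and 6.26 TPM in GFP-negative, 7.66 and 11.4 TPM in GFP-positive, 46.1 to 106 TPM in WT and 50.0 to 158 TPM in stabilized cultures. The sorted fractions did not differ by the test (0.90, SE 0.37, adjusted p = 0.12, edgeR). Csf1 rose in culture, by 1.79 (log2) in WT (SE 0.33, adjusted p = 0.00287) and by 2.35 in stabilized cultures (SE 0.24, adjusted p = 0.000498). Il34, the other ligand, went the opposite way. It stood at 25.0 and 9.86 TPM in GFP-negative and 2.82 and 7.57 TPM in GFP-positive cells (-2.20, SE 0.54, adjusted p = 0.0282), and at no more than 1.56 TPM in any culture (-2.84, SE 0.48, adjusted p = 0.00194 for WT; -3.06, SE 0.34, adjusted p = 0.00063 for stabilized, both under the TPM minimum). These 2 comparisons share the GFP-positive libraries.

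Cx3cl1 stood at 2.55 and 4.59 TPM in GFP-negative and at 27.2 and 6.68 TPM in GFP-positive cells (1.68, SE 0.51, adjusted p = 0.0534, edgeR). Among cultures of 36 cycles it differed by isolation method, with 39.5 and 71.2 TPM in WT and 82.4 and 80.8 TPM in stabilized cultures of method A, against 6.65 and 6.95 TPM in WT and 13.1 and 11.7 TPM in stabilized cultures of method B. WT replicates 3 and 4, method B with 150 cycles, were at 57.9 and 56.6 TPM, inside the range of method A. Among the 8 libraries of 36 cycles Cx3cl1 fell by 2.32 (log2) in method B (SE 0.23, adjusted p = 0.000236).

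**Figure D4:**
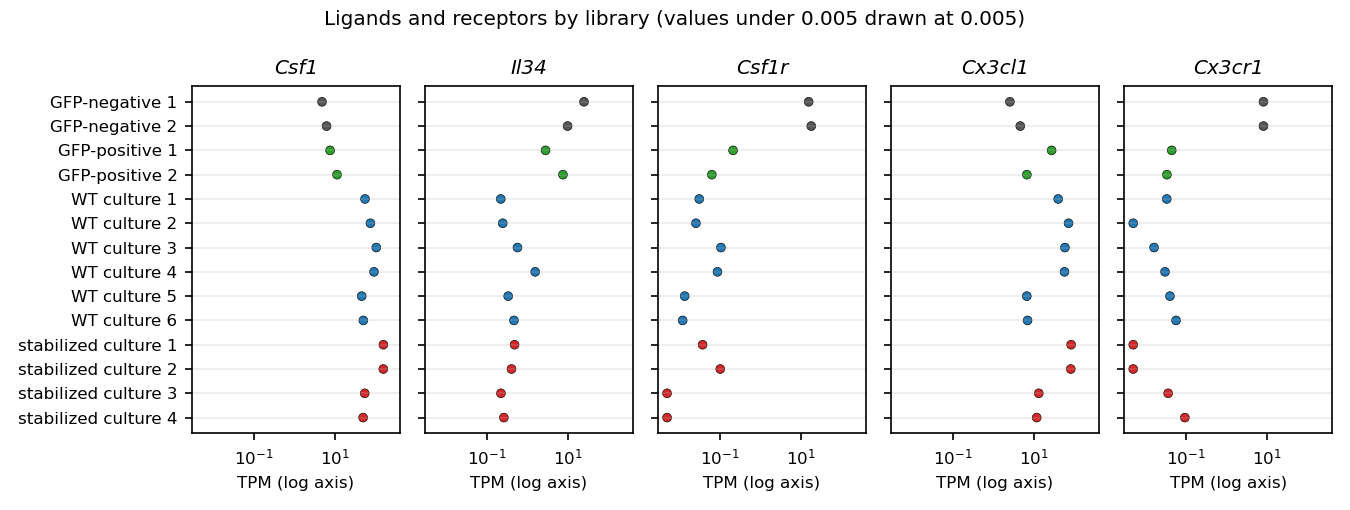
TPM on a log axis of the ligands Csf1, Il34 and Cx3cl1 and of the receptors Csf1r and Cx3cr1 in the 14 RNA-seq libraries, with values under 0.005 TPM drawn at 0.005. Csf1 lies at 46.1 TPM or above in the cultures, where Csf1r and Cx3cr1 lie at 0.107 TPM or below.

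A few genes of the wider lists were present in culture, where 8 of the 10 members stayed below 1 TPM. Laptm5, a lysosomal membrane protein of haematopoietic cells, stood at 8.84 to 80.9 TPM in WT and 25.3 to 67.2 TPM in stabilized cultures and was higher by 3.94 (SE 0.85, adjusted p = 0.00576) and 4.43 (SE 0.44, adjusted p = 0.000431) than in GFP-positive cells by edgeR. Cd14, named after its values were seen, reached 57.3 and 61.2 TPM in WT replicates 3 and 4. In the 10 cultures Ctss, Tyrobp and Spi1 stood at no more than 0.161 TPM. Of the pan-myeloid list 4 of 9 genes were tested in WT and 5 of 9 in stabilized cultures. Of these, 1 and 2 were called higher, where 13.5% and 15.1% of all genes tested were. By adjusted p alone (edgeR) 3 were higher and 0 lower in WT, and 4 higher and 1 lower in stabilized cultures. Among all genes 3292 of 13785 and 4006 of 13889 were higher by that criterion. The median log2 fold changes of the tested list genes were 4.38 and 4.43. These counts rest on few genes.

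Isolation method was tested over the 8 culture libraries of 36 cycles, with genotype in the model. Of 3 members tested 0 were called, against 3.58% of all genes higher and 3.83% lower. Without the TPM minimum 2 were lower in method B, Lyz2 (-4.61, SE 0.63, adjusted p = 0.000857, edgeR) and Tmem119 (-1.98, SE 0.51, adjusted p = 0.013), against 7.71% of all genes higher and 10.8% lower. For Lyz2 method A libraries held 4, 13, 38 and 50 reads and method B libraries 2, 1, 1 and 0. Genotype of the WT controls changed with the method. The stabilized cultures had 1 genotype in both methods, and in them Lyz2 held 38 and 50 reads in method A against 1 and 0 in method B, and Tmem119 45 and 153 against 11 and 31. The effect of stabilization on Mrc1 differed between methods, by 3.39 in log2 units (SE 0.91, edgeR adjusted p = 0.0137). This rests on 12 and 22 reads in WT and 34 and 22 in stabilized cultures of method A, against 0 and 4 in WT and 13 and 25 in stabilized cultures of method B. Without stabilized replicate 4 the adjusted p was 0.0604. It was 1 of 6 members tested, against 6.25% of all genes higher and 9.08% lower without the TPM minimum, and 0 of 6 were called with it (3.09% and 5.5% of all genes).

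Chromatin at the members was read from ATAC-seq, in which a transposase cuts accessible DNA, in 2 GFP-positive, 6 WT and 2 stabilized libraries (both of method B). No GFP-negative library was analysed here. In 8 of 10 libraries 0 of 10 members had a peak within 1 kb of the gene start, where 50.1% to 59.4% of all 21924 protein-coding genes of the annotation had one. In WT replicates 3 and 4 the promoters of P2ry12 and Tmem119 had a peak, beside 61.3% and 61.4% of all genes. The P2ry12 peaks had fold enrichments of 6.65 and 7.80, with summits at 31 and 13 bases inside the RefSeq start, within the promoter printed above, which also lies inside Med12l on the opposite strand. The Tmem119 peaks had fold enrichments of 5.85 and 3.69. RNA of P2ry12 was 0.0917 and 0 TPM in WT RNA-seq replicates 3 and 4. The labels do not tie RNA and ATAC libraries of 1 number to the same wells.

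Away from the annotated gene starts some elements recurred. An intronic peak of Mrc1, 66171 bases into the gene and printed above, was called in each of the 10 libraries with fold enrichments of 6.29 to 22.6. Within the annotated model of Cx3cr1, which spans other genes, 5 intronic peaks were also called in each of the 10 libraries, with summits grouped at gaps of up to 200 bases. Of these, 1 lay 67630 bases in (fold enrichments 9.84 to 20.9), where no other protein-coding gene lies or starts within 1 kb. Overlapping peaks 58616 and 58192 bases in were counted apart by this grouping, in 5 and 6 libraries. Every library had a peak in that stretch. A second intronic peak of Mrc1, 50018 bases in, was called in 4 WT and 2 stabilized and in 0 GFP-positive libraries. Intronic peaks of Ptprc (107028 bases in) and of Csf1r (8053 bases in) were each called in 7 libraries. These were likewise 5 WT and 2 stabilized and 0 of 2 GFP-positive libraries. P2ry12 had one 43338 bases in, in the same numbers. That P2ry12 peak also lies in Med12l and within 1 kb of the start of another annotated P2ry12 transcript. GFP-positive libraries held 31844 and 37453 peaks and cultures 33152 to 98840, so that peak number differs between the groups, and its part in these counts was not tested. Cd163 had an intronic peak in 5 libraries, both GFP-positive ones included, and C1qa and Lyz2 had none in any library.

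**Figure D5:**
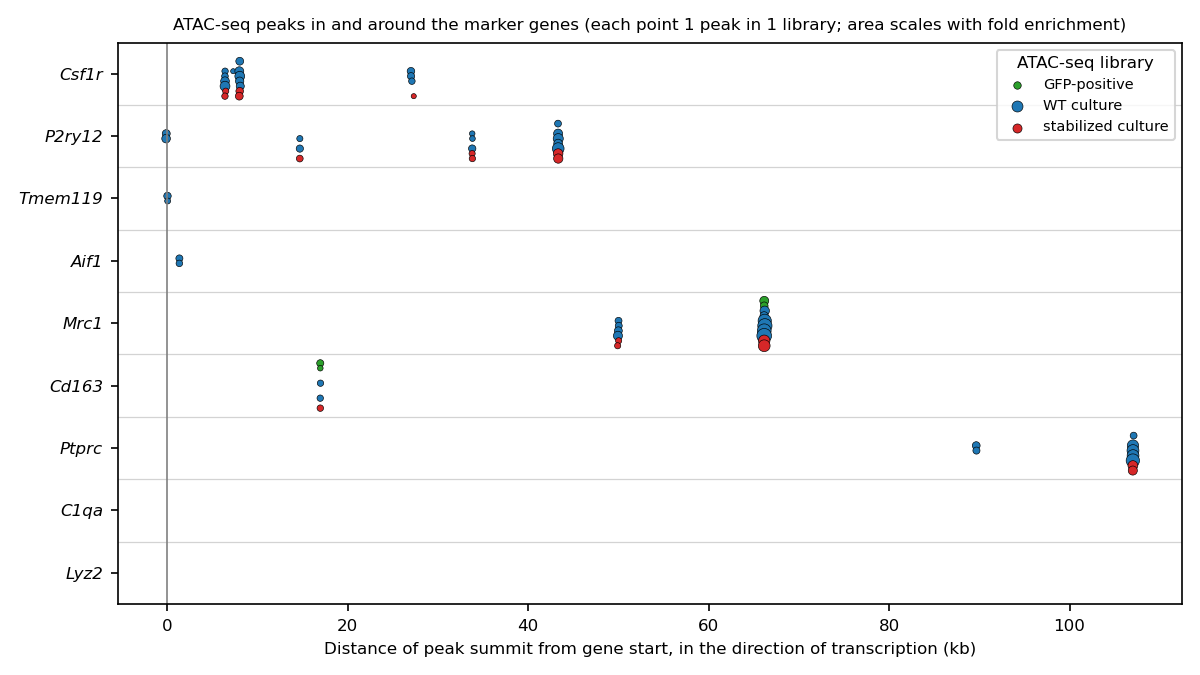
ATAC-seq peaks in and near 9 members (Cx3cr1, whose annotated model spans other genes, is left out), by the distance of the summit from the gene start in kb, where each point is 1 peak in 1 library, colour gives the group and area the fold enrichment. The Mrc1 peak 66171 bases in is in all 10 libraries, and points at the start itself are those of P2ry12 and Tmem119 in WT replicates 3 and 4.

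Across the 14 RNA-seq libraries the members followed each other. Pearson's r between log2(TPM + 1) of a member and the mean of the other 9 was 0.955 to 0.996, except for Tmem119 at 0.671. Outside the lists, the genes most like the mean of the members among 10530 ranked were Diras2 (0.997), Pnmal2, Fgd4, Frrs1l and Sh3gl2 (each 0.996). Frrs1l, for example, had group means of 27.0 TPM in GFP-negative, 0.271 TPM in GFP-positive and 0.0243 TPM in WT cultures. In all, 580 genes had an r above 0.95, and the points share 4 groups that differ in cell make-up.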

How the data were processed

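RNA-seq files held, per transcript, estimated counts and TPM that the authors made with Salmon 0.14.0 on GENCODE M21 transcripts (mm10, GRCm38), with an effective length in bases. The deposited files of sorted cells combine cerebrum and cerebellum. ATAC-seq files held MACS2 2.1.2 peaks, called by the authors per library after HISAT2 2.1.0 alignment to GRCm38. The deposited peak columns are a score, the fold enrichment (a ratio over local background), and −log10 p-values and −log10 q-values. Other samples of the cerebrum were not analysed here.

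Estimated counts were summed per protein-coding symbol, rounded and tested with edgeR 4.0.16 in R 4.3.3 (low-count filter, TMM scaling, quasi-likelihood test), on the libraries of each comparison, with Benjamini-Hochberg adjustment over all genes tested. Calls needed an adjusted p under 0.05, a change over 2-fold, and 5 TPM or more in each library of the higher group. This follows the study's criteria with edgeR in place of its own tool. The test was tried on simulated data. Total estimated counts were 24284843 to 94686456 per library. Intervals and the floor of 3 counts cover counting error only. Peaks were kept at a fold enrichment above 2 and −log10 q above 2, and a promoter peak overlapped the 1 kb to either side of the annotated gene start by at least 1 base. Promoter sequences are RefSeq's (7 of 10 members matched).

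Members and gene lists were chosen with earlier results of these data known. Named genes were the members, up to 4 genes per myeloid list with the highest GFP-negative TPM, all ligands and partner genes, and the 5 genes most like the members, a gene of the lists is not reported here, and genes named otherwise are marked in the text as chosen after values were seen. Alternatives were other scaling (library size, DESeq2 1.42.0), filters, a length offset, left-out libraries, replicate blocks, summed wells and other peak windows. Same-numbered stabilized and WT cultures deviated together (r = 0.254 to 0.296 over 4 pairs), and the rule used treats them as paired. The best match had the same number for stabilized replicates 2 and 3 but another number for replicates 1 and 4. Same-numbered cultures also share the isolation method, so pairing by number and by method cannot be told apart. In the comparisons with sorted cells r was -0.0281 to 0.0749 and samples share only a number.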

Additional observations from a re-analysis of the deposited data

Results flagged for a closer look

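Mrc1 was the member whose stabilization effect differed between isolation methods by the interaction test, at 3.39 on the log2 scale (method B minus method A, SE 0.91, adjusted p = 0.0137, edgeR). Method B held 0 and 4 reads in WT and 13 and 25 in stabilized cultures, and method A held 12 and 22 in WT and 34 and 22 in stabilized cultures. The difference kept its direction over 14 settings, from 2.66 to 7.32, with an adjusted p from 0.00625 to 0.0604. By adjusted p alone (edgeR) 1 of 6 members tested passed, where 6620 of 13357 genes tested did, so Mrc1 does not stand out from that share. Of 12 pairs of a member and a culture group with enough reads to look for a library far from the others, 0 had one. Sorted groups were too small to enter, so the P2ry12 gap between GFP-positive libraries was not tested. Wells of 1 culture can also mask each other, as for Tmem119 in WT replicates 3 and 4 (4.28 and 3.69 TPM). Chance alone gives about 1 in 20, but no conclusion is drawn from the 0.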

How the results depend on the processing

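Calls of members in the sorted cells ran from 7 to 8 when a library was left out, and 5 were called with an offset for transcript length, where P2ry12 and Ptprc were lost (adjusted p = 0.0808 and 0.0746, edgeR). Without the TPM minimum, 4 members passed between WT cultures and GFP-positive cells, 3 between stabilized cultures and GFP-positive cells, 2 between methods and 1 for the interaction, against 0 with it. Promoter peaks counted 4 pairs of a member and a library. They counted 10 with a window of 2500 bases (Aif1 added), 14 with the start of any annotated transcript, 2 to 4 with 1 library left out (2 without WT replicate 3 or 4), and 0 without both, the choice of transcript starts and of leaving out both being made after seeing the data. Of the other named values, Cx3cl1 between WT cultures and GFP-positive cells turned to -0.80 with method B cultures of 36 cycles alone (adjusted p = 0.0751), from 1.05, and was 2.01 with method A alone (adjusted p = 0.00949). Library-size scaling moved the median of all genes in the sorted cells from -0.06 to -0.44 on the log2 scale, and the 10 members stayed lower.

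With the replicate number as a block, 7 members were called in the sorted cells and 0 in the 3 culture comparisons, as without the block. This fit keeps only replicate numbers found in both groups. Against GFP-positive cells that left culture replicates 1 and 2, all of method A. For single genes on those libraries, Csf1r in WT cultures no longer passed (adjusted p = 0.279, edgeR). Cx3cl1 did, at 2.02 in WT (adjusted p = 0.00171) and 1.88 in stabilized cultures (adjusted p = 0.000139). The WT value lies close to that with method A alone, so the block and the loss of method B libraries cannot be told apart. The interaction with wells summed per culture was not run, since it leaves no residual degrees of freedom. In the cultures the 10 members together held 38 to 248 reads per library, which limits the precision of their values.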
